A study of Mus musculus with 12 samples.

Results

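The genes described here are 45 genes of DNA replication, chromosome segregation and cell division, chosen by name as known S, G2 and M phase genes, among the 55401 genes counted in mouse scWAT (subcutaneous white adipose tissue). Each of the 45 had enough counts for a test, as had 16540 genes in all. RNA came from 12 female mice in 4 groups of 3: wild-type mice (*Jmjd1a* +/+) and *Jmjd1a* HY/HY mice, each held for 1 week at 30°C, which is thermoneutral for a mouse, or at 8°C. The mice were 16 weeks old, were caged singly and had all spent 1 week at 30°C before the groups were separated. The HY allele, made by CRISPR/Cas9 editing of fertilised eggs and so present in every cell, exchanges a histidine for a tyrosine in JMJD1A and leaves this histone H3 lysine demethylase without its activity. The comparisons ask which cell cycle transcripts changed with chronic cold in each genotype and which differed between the genotypes at each temperature.

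A cell that enters the cycle first switches on cyclin E and the genes of DNA synthesis through E2F transcription factors, and then, through B-MYB and FOXM1, the genes of mitosis. Cyclin A2 and the B cyclins activate the kinase CDK1, Aurora and Polo kinases build the spindle, and the anaphase-promoting complex (APC/C) destroys the B cyclins and securin to end mitosis. Mature adipocytes rarely divide, and dividing cells of fat are usually progenitors, endothelial cells or immune cells. In RNA from whole tissue, fewer cells of a type and less RNA per cell cannot be told apart.

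Sense-strand gene counts ran from 18305586 to 26352081 in the libraries at 30°C and from 13592629 to 17955584 in those at 8°C, with no overlap. Levels are given as CPM, the counts of a gene scaled to a common library size, with library sizes scaled by the TMM method, in the order of replicates 1, 2 and 3. *Kdm3a*, the gene of JMJD1A, lay between 35.6 and 61.6 CPM in all 12 libraries, and gene counts do not tell its alleles apart. Adipocyte markers, among them *Adipoq* and *Plin1*, were abundant in every library (16532 to 49860 CPM summed over 7 genes). Of the wild-type libraries at 30°C, replicate 2 stood apart: its skeletal muscle markers summed to 960 CPM and its keratinocyte markers to 104 CPM, against 2.60 to 21.0 CPM and 3.12 to 3.99 CPM in the other libraries. The counts of genes called with cold in wild-type mice are therefore also given without it.

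Many cell cycle genes share short promoter sequences, and windows of 300 bases around the annotated start (250 before, 50 after; RefSeq, GRCm38.p6) were available for 37 of the 45 genes, in 39 promoters. No window was at hand for *Ccne2*, *Ccna2*, *Foxm1*, *Mcm4*, *Gmnn*, *Aurkb*, *Kif20a* and *Tpx2*. The CHR element (TTTGAA or TTTAAA, either strand), known from G2 and M phase genes, was found in 24 of the 39 (61.5%), against 27.6% of 32841 mouse promoters. A CCAAT box (CCAAT, either strand) was found in 28 (71.8%, against 37.4%), and an E2F motif (TTCCCGC, the variant TTGGCGC or the variant TTCGCGC, on either strand) in 11 (28.2%, against 8.07%). The following stretches, written along the strand of the gene and ending 1 base before the annotated start, are those of *Ccnb1* and *Rrm2*, the genes of mitosis and of DNA synthesis with the smallest adjusted p with cold in wild-type mice among those with a window, and of *Cdk1*, *Cdc20* and *Top2a*, which were called, and *Mcm6*, which was not. The latter 4 were chosen after their values were seen. Capitals mark CHR, CCAAT and E2F motifs on either strand, and adjoining or overlapping matches run together, as where TTGGCGC shares letters with a CCAAT box.
Ccnb1: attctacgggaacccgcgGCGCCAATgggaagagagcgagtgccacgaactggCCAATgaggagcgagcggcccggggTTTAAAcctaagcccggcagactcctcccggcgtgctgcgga
Cdk1: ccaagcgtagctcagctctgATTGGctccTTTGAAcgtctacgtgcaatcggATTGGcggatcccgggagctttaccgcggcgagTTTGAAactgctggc
Cdc20: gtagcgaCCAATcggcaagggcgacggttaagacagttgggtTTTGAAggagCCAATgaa
Top2a: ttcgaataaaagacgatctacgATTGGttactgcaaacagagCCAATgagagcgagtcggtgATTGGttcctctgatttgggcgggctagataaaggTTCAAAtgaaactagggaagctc
Rrm2: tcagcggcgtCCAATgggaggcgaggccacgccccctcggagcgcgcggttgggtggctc
Mcm6: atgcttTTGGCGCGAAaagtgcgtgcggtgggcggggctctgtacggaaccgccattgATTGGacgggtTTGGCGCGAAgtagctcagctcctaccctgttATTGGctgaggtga
They lie at chr13:100786487-100786606 (*Ccnb1*), chr10:69352913-69353012 (*Cdk1*), chr4:118437344-118437403 (*Cdc20*) and chr11:99024190-99024309 (*Top2a*) on the minus strand, at chr12:24708194-24708253 (*Rrm2*) on the plus strand and at chr1:128359706-128359820 (*Mcm6*) on the minus strand. The window of *Top2a* uses a start inside the gene position, which reaches to 99024199. The last bases of its stretch thus lie within the gene. The stretches of *Ccnb1*, *Cdk1*, *Cdc20* and *Top2a* hold a CHR beside CCAAT boxes, and that of *Ccnb1* also holds an E2F motif. That of *Rrm2* holds a CCAAT box, and its window also holds a CHR that starts at the annotated start, just past the stretch. In *Mcm6* the stretch holds E2F motifs and CCAAT boxes, and its window holds no CHR. The window of *Cdk1* also holds 2 E2F motifs that lie before its stretch. A match is a description of the letters and shows neither binding nor use.

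In wild-type scWAT, 35 of the 45 genes (77.8%) were called higher at 8°C than at 30°C and none was called lower. Over all genes tested, 10.3% were called higher and 6.93% lower. These shares stand beside the counts by role below, as does the 4.42% of all genes called lower in HY/HY mice at 8°C. A call required a Benjamini-Hochberg adjusted p under 0.05 in edgeR's quasi-likelihood test and a fold change above 1.5 or below 0.67. For single genes, the cold response is the log2 fold change ± SE from 30°C to 8°C in wild-type mice, and the genotype difference is that of HY/HY against wild-type mice at 8°C. Among the genes called, the fold change ran from 1.53 (*Mad2l1*) to 6.34 (*Bub1*), and the median over the 45 was 1.5 on the log2 scale, or 2.83-fold, against -0.069 over all genes. At an unadjusted p under 0.05 there were 36, against 38.4% of all genes in either direction. In 33 of the 45 all libraries at 8°C lay above all at 30°C, against 20.7% of all genes, and in none did all lie below, against 22.7%. The largest effect of a single library came from replicate 1 at 8°C, without which 23 genes were called. Without replicate 2 at 30°C, the library with muscle and skin transcripts, 26 were called, and 27 were with library totals in place of TMM. Over all genes, 1901 were called in either direction without replicate 2 at 30°C, against 2854 in the full fit. Without replicate 3 at 8°C, 24 of the 45 were called. The calls lost without at least 1 library were those of *Ccne1*, *Ccne2*, *E2f1*, *Mcm3*, *Mcm5*, *Plk1*, *Aurka*, *Aurkb*, *Mad2l1*, *Kif11*, *Kif23*, *Cenpe* and *Ube2c*, and the others were called without any single library.

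**Figure D1:**
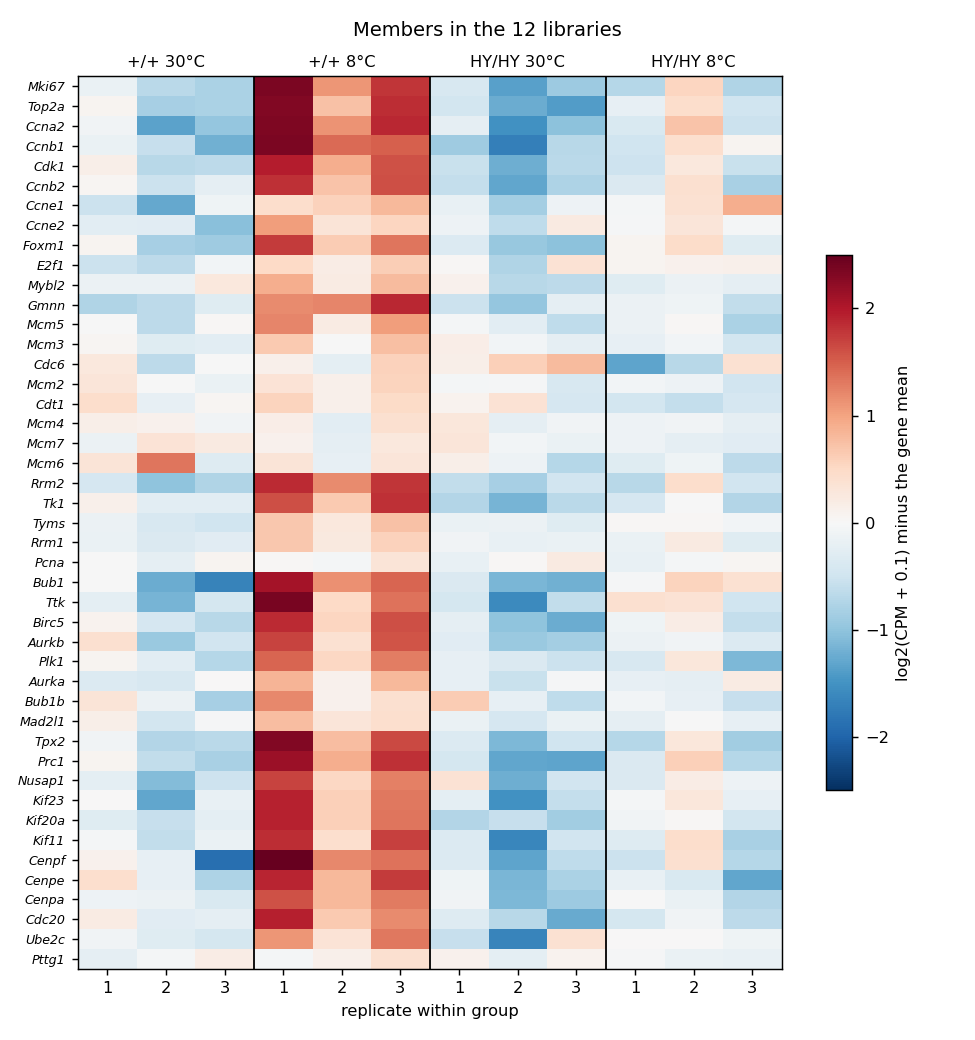
Level of each of the 45 genes (rows, grouped by role) in the 12 libraries (columns), as log2(CPM + 0.1) minus the mean of the gene over all libraries. The 3 wild-type libraries at 8°C are the reddest columns, replicate 2 less than replicates 1 and 3: their summed levels were 632, 398 and 593 CPM, against 258 to 331 CPM in the other 9 libraries.

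The summed level of the 45 genes in wild-type mice was 320, 313 and 291 CPM at 30°C, against 632, 398 and 593 CPM at 8°C. In HY/HY mice it was 314, 258 and 280 CPM at 30°C and 284, 331 and 269 CPM at 8°C. Every wild-type library at 8°C was thus above each of the other 9, which overlapped among themselves. Wild-type mice at 8°C also differed most from each other: replicate 2 had the lowest level of its group for 42 of the 45 genes and replicate 1 the highest for 32. In HY/HY mice at 8°C, replicate 2 was highest for 30 genes and replicate 3 lowest for 33.

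*Mki67*, which encodes the Ki-67 protein of dividing cells and is the usual proliferation marker (ENSMUSG00000031004.8, chromosome 7 from 135689784 to 135716450 in GRCm38), was at 8.15, 5.69 and 5.20 CPM at 30°C and at 46.7, 19.6 and 31.8 CPM at 8°C in wild-type mice, and at 6.89, 3.51 and 4.78 CPM and 5.5, 13.2 and 5.35 CPM in HY/HY mice. The wild-type libraries at 8°C were all above the others, replicate 2 by the smallest margin, and HY/HY replicate 2 at 8°C was the highest of the rest. The group means were 6.35 ± 1.58, 32.7 ± 13.6, 5.06 ± 1.71 and 8.03 ± 4.51 CPM in the same order (SD, n = 3). *Mki67* rose 5.14-fold with cold in wild-type mice (log2 fold change 2.36 ± 0.41, SE; adjusted p = 0.00186) and was lower in HY/HY than in wild-type mice at 8°C (log2 fold change -2.02 ± 0.40, adjusted p = 0.0128). The latter call was lost in 4 of 22 alternatives, 3 of which left out a single library. Its highest adjusted p was 0.0666, without HY/HY replicate 3 at 8°C. The rise with cold in wild-type mice held in every alternative (adjusted p up to 0.0112). *Top2a*, topoisomerase II alpha, which untangles sister chromatids, was at 6.47, 3.46 and 3.56 CPM at 30°C and at 31.3, 10.4 and 22.5 CPM at 8°C in wild-type mice, and at 4.49, 2.58 and 2.28 CPM and 5.37, 8.49 and 4.38 CPM in HY/HY mice. Its wild-type libraries at 8°C again did not overlap with any other group. It had a cold response of 2.25 ± 0.42 (adjusted p = 0.00314) and a genotype difference of -1.81 ± 0.42 (adjusted p = 0.0238), both called.

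**Figure D2:**
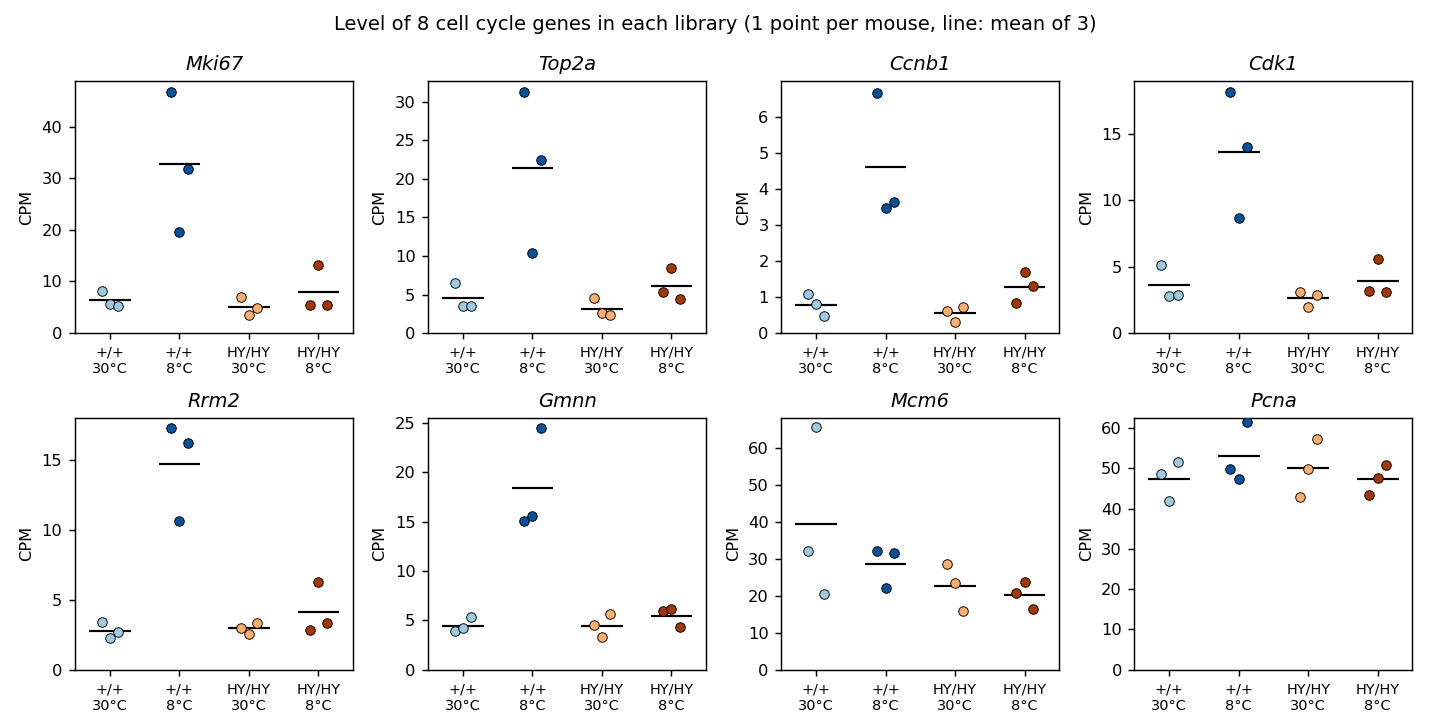
Level in CPM of 8 of the genes in each library (points, 1 per mouse; line, mean of 3) by genotype and temperature. For Mki67, Top2a, Ccnb1, Cdk1, Rrm2 and Gmnn the 3 wild-type mice at 8°C lie above all 9 other mice, whereas the groups overlap for Mcm6 and for Pcna, which lay between 41.8 and 61.6 CPM throughout.

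All 6 genes of the cyclins and *Cdk1* rose with cold in wild-type mice, with log2 fold changes from 1.19 to 2.62, and *Ccna2*, *Ccnb1*, *Ccnb2* and *Cdk1* were lower in HY/HY than in wild-type mice at 8°C. *Ccnb1*, the cyclin B1 that activates CDK1, was at 1.09, 0.793 and 0.478 CPM at 30°C and at 6.68, 3.47 and 3.65 CPM at 8°C in wild-type mice, and at 0.619, 0.310 and 0.727 CPM and 0.841, 1.69 and 1.30 CPM in HY/HY mice. It was a rare transcript that separated the wild-type libraries at 8°C from every other library, and in HY/HY mice too all libraries at 8°C lay above those at 30°C. It had a cold response of 2.53 ± 0.41 (adjusted p = 0.00129) and a genotype difference of -1.84 ± 0.40 (adjusted p = 0.0188). *Ccna2*, cyclin A2 of S and G2 phase, was at 3.58, 1.44 and 1.91 CPM at 30°C and at 19.6, 8.36 and 14.4 CPM at 8°C in wild-type mice, and at 3.25, 1.27 and 1.82 CPM and 2.91, 6.31 and 2.60 CPM in HY/HY mice. Its wild-type replicate 2 at 8°C was the lowest of that group but above all libraries of the other groups. *Ccna2* had a cold response of 2.62 ± 0.48 (adjusted p = 0.00278) and a genotype difference of -1.83 ± 0.47 (adjusted p = 0.0355). *Ccnb2*, the second B cyclin, was at 1.99, 1.30 and 1.65 CPM at 30°C and at 7.13, 3.24 and 6.09 CPM at 8°C in wild-type mice, and at 1.24, 0.722 and 1.09 CPM and 1.49, 2.56 and 1.05 CPM in HY/HY mice. *Cdk1*, the kinase of mitotic entry, was at 5.12, 2.81 and 2.87 CPM at 30°C and at 18.2, 8.67 and 14.03 CPM at 8°C in wild-type mice, and at 3.10, 1.93 and 2.86 CPM and 3.17, 5.56 and 3.08 CPM in HY/HY mice. For both genes the wild-type libraries at 8°C lay above all others. *Ccnb2* had a cold response of 1.74 ± 0.37 (adjusted p = 0.00615) and a genotype difference of -1.67 ± 0.38 (adjusted p = 0.021). *Cdk1* had a cold response of 1.92 ± 0.34 (adjusted p = 0.00242) and a genotype difference of -1.78 ± 0.35 (adjusted p = 0.0115), and without HY/HY replicate 1 at 8°C the latter adjusted p was 0.062.

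The E cyclins, which act with CDK2 at the start of S phase, were called with cold in wild-type mice and not between the genotypes. *Ccne1* was at 2.72, 1.59 and 3.66 CPM at 30°C and at 5.42, 5.95 and 7.05 CPM at 8°C in wild-type mice, and at 3.48, 2.17 and 3.63 CPM and 3.82, 5.18 and 7.54 CPM in HY/HY mice. All libraries at 8°C lay above those at 30°C in each genotype, and the genotypes overlapped at each temperature. *Ccne1* had a cold response of 1.22 ± 0.33 (adjusted p = 0.0211) and a genotype difference of -0.16 ± 0.33 (adjusted p = 0.817), of which the former was called. *Ccne2* rose with cold in wild-type mice (log2 fold change 1.19 ± 0.32, adjusted p = 0.0193) and the log2 value between the genotypes at 8°C was -0.61 ± 0.32 (adjusted p = 0.29). Without wild-type replicate 3 at 8°C, the adjusted p of the rise of *Ccne1* was 0.0771, and without replicate 1 that of *Ccne2* was 0.0793.

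Of the transcription factors, *Foxm1* and *E2f1* rose with cold in wild-type mice and none of the 3 was called between the genotypes. *Foxm1*, the activator of G2 and M phase genes, was at 2.44, 1.26 and 1.22 CPM at 30°C and at 8.09, 3.69 and 6.09 CPM at 8°C in wild-type mice, and at 1.82, 1.17 and 1.09 CPM and 2.46, 3.25 and 1.87 CPM in HY/HY mice. Wild-type mice at 8°C were above all other libraries, and in HY/HY mice the libraries at 8°C were all above those at 30°C. *Foxm1* had a cold response of 1.86 ± 0.37 (adjusted p = 0.00452) and a genotype difference of -1.23 ± 0.37 (adjusted p = 0.0657). *E2f1*, the activator of S phase genes, was at 4.30, 3.96 and 5.95 CPM at 30°C and at 8.91, 7.16 and 9.68 CPM at 8°C in wild-type mice, and at 6.43, 3.68 and 8.10 CPM and 6.60, 6.74 and 6.89 CPM in HY/HY mice. The HY/HY libraries at 30°C spanned those at 8°C, and the wild-type libraries at 8°C were above all libraries of wild-type mice at 30°C. *E2f1* had a cold response of 0.86 ± 0.26 (adjusted p = 0.0334) and a genotype difference of -0.35 ± 0.26 (adjusted p = 0.478), and the adjusted p of its rise was 0.114 without wild-type replicate 2 at 30°C. *Mybl2*, which encodes B-MYB, had a cold response of 0.69 ± 0.28 (adjusted p = 0.0948) and a genotype difference of -0.92 ± 0.29 (adjusted p = 0.0827), neither of them called.

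Origin licensing, the loading of the MCM helicase onto DNA before S phase, had the smallest share of genes called with cold of all roles. Of its 9 genes, 3 were called higher with cold in wild-type mice, against 10.3% of all genes. At 8°C, 4 were lower in HY/HY mice, against 4.42% of all genes. *Gmnn*, geminin, the inhibitor of licensing that is present in S and G2 phase, had the smallest adjusted p of all 45 genes in both comparisons. It was at 3.89, 4.18 and 5.36 CPM at 30°C and at 15.1, 15.6 and 24.5 CPM at 8°C in wild-type mice, and at 4.49, 3.34 and 5.61 CPM and 5.95, 6.12 and 4.30 CPM in HY/HY mice. Every wild-type library at 8°C was above the 9 others, which overlapped between groups. *Gmnn* had a cold response of 2.04 ± 0.25 (adjusted p = 0.00021) and a genotype difference of -1.75 ± 0.25 (adjusted p = 0.00271), and both calls held in every alternative, with adjusted p up to 0.00212 and 0.0204. *Mcm5* had a cold response of 1.08 ± 0.30 (adjusted p = 0.0234) and a genotype difference of -1.15 ± 0.31 (adjusted p = 0.0428), and *Mcm3* had a cold response of 0.67 ± 0.20 (adjusted p = 0.0312) and a genotype difference of -0.74 ± 0.20 (adjusted p = 0.0482), and all of these were called. They are helicase subunits, and each of these calls was lost in some alternatives.

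The other helicase subunits, *Mcm2*, *Mcm4*, *Mcm6* and *Mcm7*, and the loading factor *Cdc6* were called in no comparison. The loading factor *Cdt1* was lower in HY/HY mice at 8°C (-0.91 ± 0.25 on the log2 scale, adjusted p = 0.047). This call was lost in 11 of 22 alternatives, with adjusted p up to 0.145. With cold in wild-type mice *Cdt1* had 0.29 ± 0.24 (adjusted p = 0.401). *Mcm6*, with the highest mean level of this role over the 12 libraries, was at 32.2, 65.6 and 20.4 CPM at 30°C and at 32.1, 22.2 and 31.6 CPM at 8°C in wild-type mice, and at 28.6, 23.5 and 15.7 CPM and 20.8, 23.7 and 16.4 CPM in HY/HY mice. The highest value was in wild-type replicate 2 at 30°C, the library with muscle and skin transcripts, and the groups overlapped. The rank of *Mcm6* turned on the group: in HY/HY mice *Mcm7* had the higher mean, at 26.2 against 22.6 CPM at 30°C and 22.1 against 20.3 CPM at 8°C. The log2 fold change of *Mcm6* was -0.46 ± 0.36 (adjusted p = 0.365) with cold in wild-type mice, and 0.12 (adjusted p = 0.801) without that library. With cold in wild-type mice the log2 fold change was 0.29 for *Mcm2*, 0.06 for *Mcm4*, -0.10 for *Mcm7* and 0.29 for *Cdc6*, with adjusted p from 0.252 to 0.827. The signs of *Mcm2*, *Mcm4*, *Mcm6*, *Mcm7*, *Cdc6* and *Cdt1* changed in at least 1 alternative, so no direction is given for them with cold.

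Of the genes of DNA synthesis and nucleotide supply, 4 of 5 rose with cold in wild-type mice. *Rrm2*, the subunit of ribonucleotide reductase made for S phase, was at 3.44, 2.27 and 2.71 CPM at 30°C and at 17.3, 10.6 and 16.2 CPM at 8°C in wild-type mice, and at 3.02, 2.58 and 3.32 CPM and 2.85, 6.31 and 3.33 CPM in HY/HY mice. Wild-type mice at 8°C lay above all others, and HY/HY replicate 2 at 8°C was the highest of the rest. *Rrm2* had a cold response of 2.39 ± 0.30 (adjusted p = 0.000253) and a genotype difference of -1.81 ± 0.30 (adjusted p = 0.00516), and both calls held in every alternative, with adjusted p up to 0.00211 and 0.0358. *Rrm1*, the partner subunit, was at 18.9, 16.4 and 17.3 CPM at 30°C and at 33.9, 25.02 and 31.3 CPM at 8°C in wild-type mice, and at 19.7, 18.5 and 18.9 CPM and 18.7, 24.8 and 17.03 CPM in HY/HY mice. *Rrm1* had a cold response of 0.78 ± 0.15 (adjusted p = 0.00406) and a genotype difference of -0.58 ± 0.15 (adjusted p = 0.0418), but its fold change between the genotypes of 0.671 fell just short of the limit of 0.67, so only the former was called. *Tk1*, the thymidine kinase that salvages thymidine, was at 3.17, 2.38 and 2.39 CPM at 30°C and at 9.06, 4.60 and 10.51 CPM at 8°C in wild-type mice, and at 1.70, 1.24 and 1.77 CPM and 2.13, 2.87 and 1.70 CPM in HY/HY mice. *Tk1* had a cold response of 1.61 ± 0.31 (adjusted p = 0.00352) and a genotype difference of -1.84 ± 0.32 (adjusted p = 0.00655), both called, and with counts of both strands together the adjusted p of its rise was 0.0924. *Tyms*, thymidylate synthase, was at 6.52, 5.41 and 5.04 CPM at 30°C and at 11.5, 8.67 and 12.1 CPM at 8°C in wild-type mice, and at 6.43, 6.47 and 5.82 CPM and 7.37, 7.37 and 6.89 CPM in HY/HY mice. In *Rrm1*, *Tk1* and *Tyms* the wild-type libraries at 8°C were above every other library, in *Rrm1* by the smallest margin. *Tyms* had a cold response of 0.93 ± 0.16 (adjusted p = 0.002) and a genotype difference of -0.58 ± 0.16 (adjusted p = 0.0525), the former called.

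*Pcna*, the sliding clamp of DNA polymerases and a common proliferation marker at the protein level, was at 48.7, 41.8 and 51.6 CPM at 30°C and at 49.96, 47.4 and 61.6 CPM at 8°C in wild-type mice, and at 42.9, 49.9 and 57.2 CPM and 43.3, 47.7 and 50.8 CPM in HY/HY mice. Its groups overlapped throughout, in contrast to those of *Mki67*. *Pcna* had a cold response of 0.16 ± 0.14 (adjusted p = 0.408) and a genotype difference of -0.17 ± 0.14 (adjusted p = 0.526), neither called. It was also the member with the highest level per length of merged exons, at 19.7 CPM per kilobase in wild-type mice at 30°C, followed by *Pttg1* at 18.8 CPM per kilobase. *Bub1* and *Cenpf* were the lowest on that scale, at 0.087 and 0.0793 CPM per kilobase. Neither *Pcna* nor *Pttg1*, the highest on that scale in each of the 4 groups, was called.

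Of the mitotic kinases and checkpoint genes, 7 of 8 rose with cold in wild-type mice, and *Plk1*, *Aurkb* and *Birc5* were lower in HY/HY mice at 8°C. *Bub1*, a kinase of the spindle checkpoint, was at 0.724, 0.252 and 0.159 CPM at 30°C and at 3.41, 1.73 and 2.18 CPM at 8°C in wild-type mice, and at 0.542, 0.275 and 0.260 CPM and 0.711, 1.12 and 0.973 CPM in HY/HY mice. *Ttk*, the checkpoint kinase that recruits it, was at 0.498, 0.216 and 0.425 CPM at 30°C and at 3.56, 0.904 and 1.73 CPM at 8°C in wild-type mice, and at 0.426, 0.138 and 0.363 CPM and 0.841, 0.812 and 0.406 CPM in HY/HY mice. These had the lowest mean CPM of the 45, with as few as 3 counts in a library (*Bub1*), and the wild-type libraries at 8°C were above all others in both. *Bub1* had a cold response of 2.66 ± 0.49 (adjusted p = 0.00292) and a genotype difference of -1.38 ± 0.46 (adjusted p = 0.0987). *Ttk* had a cold response of 2.45 ± 0.55 (adjusted p = 0.00834) and a genotype difference of -1.56 ± 0.54 (adjusted p = 0.104). For both genes only the change with cold was called. *Birc5*, survivin, which holds Aurora B at the centromere, was at 2.90, 2.02 and 1.65 CPM at 30°C and at 10.2, 3.99 and 8.59 CPM at 8°C in wild-type mice, and at 2.32, 1.31 and 1.09 CPM and 2.52, 3.12 and 1.78 CPM in HY/HY mice. All wild-type libraries at 8°C were above all others, replicate 2 by the least. *Birc5* had a cold response of 1.79 ± 0.39 (adjusted p = 0.00672) and a genotype difference of -1.61 ± 0.39 (adjusted p = 0.0293), both called.

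*Plk1*, the Polo-like kinase of spindle assembly, had a cold response of 1.45 ± 0.36 (adjusted p = 0.0135) and a genotype difference of -1.47 ± 0.37 (adjusted p = 0.033). *Aurkb*, the Aurora kinase of the centromere, had a cold response of 1.62 ± 0.41 (adjusted p = 0.015) and a genotype difference of -1.56 ± 0.42 (adjusted p = 0.0438). These 4 values were called. *Aurka*, the Aurora kinase of the spindle poles, rose with cold in wild-type mice (0.89 ± 0.25 on the log2 scale, adjusted p = 0.0255), but with counts of both strands together its adjusted p was 0.681. *Mad2l1*, the checkpoint protein that holds back the APC/C, was the most abundant of this role, at 8.06, 5.30 and 7.17 CPM at 30°C and at 12.5, 9.04 and 9.87 CPM at 8°C in wild-type mice, and at 6.54, 5.47 and 6.54 CPM and 6.27, 7.24 and 6.33 CPM in HY/HY mice. Its wild-type libraries at 8°C lay above all others by a small margin. *Mad2l1* had a cold response of 0.61 ± 0.19 (adjusted p = 0.032) and a genotype difference of -0.66 ± 0.19 (adjusted p = 0.0563), the former called, with an adjusted p of 0.277 under library totals. *Bub1b*, the partner checkpoint protein BUBR1, was the member of this role that was not called (0.80 ± 0.39, adjusted p = 0.155).

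All 6 genes of spindle motors and the midzone rose with cold in wild-type mice, and *Tpx2*, *Kif20a* and *Prc1* were lower in HY/HY mice at 8°C. *Tpx2*, which activates Aurora A on the spindle, was at 2.44, 1.51 and 1.59 CPM at 30°C and at 13.4, 4.52 and 8.33 CPM at 8°C in wild-type mice, and at 2.01, 1.13 and 1.82 CPM and 1.55, 3.18 and 1.38 CPM in HY/HY mice. *Prc1*, which bundles the microtubules of the midzone, was at 2.99, 1.84 and 1.59 CPM at 30°C and at 12.99, 5.43 and 10.3 CPM at 8°C in wild-type mice, and at 2.09, 1.10 and 1.09 CPM and 2.20, 4.37 and 1.70 CPM in HY/HY mice. In both genes the wild-type libraries at 8°C were above all others, and HY/HY replicate 2 was the highest HY/HY library at 8°C. *Tpx2* had a cold response of 2.24 ± 0.42 (adjusted p = 0.00339) and a genotype difference of -2.08 ± 0.43 (adjusted p = 0.0146), and *Prc1* had a cold response of 2.16 ± 0.43 (adjusted p = 0.00426) and a genotype difference of -1.78 ± 0.43 (adjusted p = 0.0271). *Kif20a*, a kinesin of cytokinesis, was at 1.81, 1.48 and 1.91 CPM at 30°C and at 8.83, 3.47 and 5.89 CPM at 8°C in wild-type mice, and at 1.32, 1.48 and 1.19 CPM and 2.13, 2.31 and 1.62 CPM in HY/HY mice. Here the libraries at 8°C lay above those at 30°C in HY/HY mice as well. *Kif20a* had a cold response of 1.81 ± 0.31 (adjusted p = 0.00176) and a genotype difference of -1.57 ± 0.31 (adjusted p = 0.0122).

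*Kif23*, a further kinesin of the midzone, was at 2.58, 0.973 and 2.23 CPM at 30°C and at 10.02, 3.92 and 6.54 CPM at 8°C in wild-type mice, and at 2.13, 0.825 and 1.66 CPM and 2.46, 3.12 and 2.19 CPM in HY/HY mice. *Nusap1*, which binds spindle microtubules, was at 2.54, 1.37 and 2.07 CPM at 30°C and at 9.95, 4.37 and 7.37 CPM at 8°C in wild-type mice, and at 3.91, 1.24 and 2.13 CPM and 2.33, 3.43 and 2.76 CPM in HY/HY mice. Wild-type mice at 8°C lay above all other groups for both. *Kif23* had a cold response of 1.84 ± 0.44 (adjusted p = 0.0113) and a genotype difference of -1.39 ± 0.44 (adjusted p = 0.0786). *Nusap1* had a cold response of 1.87 ± 0.42 (adjusted p = 0.00816) and a genotype difference of -1.34 ± 0.42 (adjusted p = 0.0738), and for both only the change with cold was called. *Kif11*, the motor that separates the spindle poles, had a cold response of 1.78 ± 0.45 (adjusted p = 0.0155) and a genotype difference of -1.62 ± 0.46 (adjusted p = 0.0536), of which the former was called.

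The 3 genes of the centromere were called in both comparisons. *Cenpa*, the histone H3 variant of centromeric chromatin, was at 4.35, 4.29 and 3.61 CPM at 30°C and at 14.5, 8.44 and 11.9 CPM at 8°C in wild-type mice, and at 4.45, 2.13 and 2.49 CPM and 4.72, 4.25 and 2.84 CPM in HY/HY mice. *Cenpe*, a kinesin of the kinetochore, was at 1.81, 1.15 and 0.743 CPM at 30°C and at 5.27, 2.41 and 4.74 CPM at 8°C in wild-type mice, and at 1.24, 0.550 and 0.727 CPM and 1.16, 0.999 and 0.487 CPM in HY/HY mice. *Cenpf*, a kinetochore protein of G2 and M phase, was at 1.36, 1.08 and 0.265 CPM at 30°C and at 7.87, 3.01 and 3.40 CPM at 8°C in wild-type mice, and at 0.968, 0.447 and 0.779 CPM and 0.841, 1.69 and 0.730 CPM in HY/HY mice. In each of them the wild-type libraries at 8°C were above all 9 others. *Cenpa* had a cold response of 1.5 ± 0.29 (adjusted p = 0.00409) and a genotype difference of -1.55 ± 0.30 (adjusted p = 0.0113). *Cenpe* had a cold response of 1.73 ± 0.43 (adjusted p = 0.0131) and a genotype difference of -2.20 ± 0.46 (adjusted p = 0.0146), the lowest of all 45 log2 fold changes between the genotypes. *Cenpf* had a cold response of 2.36 ± 0.54 (adjusted p = 0.00934) and a genotype difference of -2.11 ± 0.55 (adjusted p = 0.0404), and without wild-type replicate 1 at 8°C the latter adjusted p was 0.157.

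Of the genes of the APC/C pathway among the 45, *Cdc20*, the activator of the APC/C, was at 3.49, 2.45 and 2.55 CPM at 30°C and at 11.9, 4.82 and 6.92 CPM at 8°C in wild-type mice, and at 2.40, 1.82 and 1.19 CPM and 2.20, 2.81 and 1.87 CPM in HY/HY mice. Wild-type mice at 8°C were above all others, and at 30°C too each HY/HY library was below each wild-type library. *Cdc20* had a cold response of 1.48 ± 0.34 (adjusted p = 0.00931) and a genotype difference of -1.77 ± 0.35 (adjusted p = 0.0123), both called. *Ube2c*, the ubiquitin-conjugating enzyme of the APC/C, rose with cold in wild-type mice (1.28 ± 0.41, adjusted p = 0.0415), a call lost in 10 of 22 alternatives. *Pttg1*, securin, was at 32.6, 36.7 and 43.3 CPM at 30°C and at 36.9, 41.6 and 49.9 CPM at 8°C in wild-type mice, and at 41.1, 32.2 and 40.3 CPM and 37.4, 33.8 and 33.5 CPM in HY/HY mice. Its groups overlapped, and it was not called, with a cold response of 0.19 ± 0.14 (adjusted p = 0.354) and a genotype difference of -0.29 ± 0.14 (adjusted p = 0.258).

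**Figure D3:**
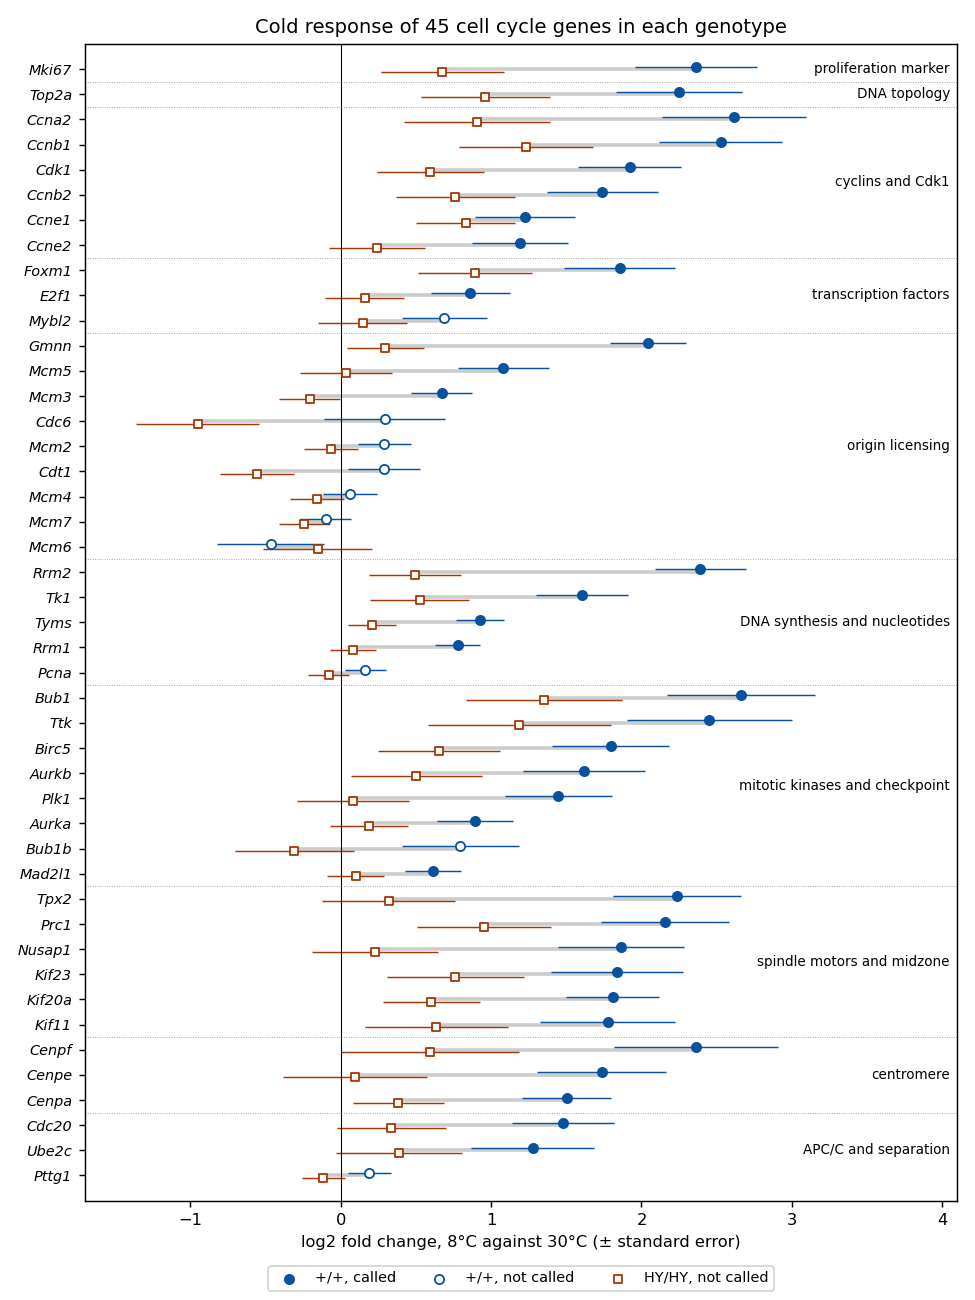
Log2 fold change from 30°C to 8°C, with its standard error, for each of the 45 genes in wild-type mice (blue circles, filled where called) and HY/HY mice (open orange squares, none called), by role; a grey bar joins the genotypes. The median was 1.5 in wild-type and 0.32 in HY/HY mice, and for 44 genes, all but Mcm6, the HY/HY value is the lower of the pair.

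In HY/HY mice, none of the 45 genes was called with cold by edgeR or by DESeq2, where 0.181% of all genes were called higher and 0.0665% lower. At an unadjusted p under 0.05 there were 7, against 14.7% of all genes. The median log2 fold change was 0.32 (1.25-fold), 35 of the 45 were positive, and 7 genes (*Ccne1*, *Ccnb1*, *Foxm1*, *Tyms*, *Bub1*, *Kif20a* and *Kif23*) had all libraries at 8°C above those at 30°C, against 9.33% of all genes. In 8.99% of all genes all lay below. The smallest adjusted p was that of *Ccnb1*, at 0.241 for a log2 fold change of 1.23 ± 0.45. *Mki67* had 0.68 ± 0.41 (adjusted p = 0.473) and *Gmnn* 0.30 ± 0.25 (adjusted p = 0.624). The 3 HY/HY libraries at 8°C had beige adipocyte marker sums of 1066, 1567 and 398 CPM and cell cycle sums of 284, 331 and 269 CPM, both highest in replicate 2 and lowest in replicate 3. In wild-type mice at 8°C the orders differed: beige sums were 8055, 8145 and 9246 CPM, and cell cycle sums 632, 398 and 593 CPM. Whether the beige and cell cycle sums were related was not tested.

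Between the genotypes at 8°C, 22 of the 45 genes (48.9%) were called lower in HY/HY mice and none higher, where 4.42% of all genes were called lower and 1.51% higher, 5.93% in all. All 45 log2 fold changes were negative, with a median of -1.38 (2.60-fold lower) against 0.012 over all genes, and in 36 genes all HY/HY libraries lay below all wild-type libraries, against 19.0% of all genes. Since this comparison and that of cold in wild-type mice share the wild-type libraries at 8°C, their counts do not bear on each other independently: 21 genes were called in both, *Cdt1* in this comparison alone, 14 with cold alone and 9 in neither. The count was 3 without HY/HY replicate 3 at 8°C, 5 without HY/HY replicate 1, 7 without wild-type replicate 1 and 10 without wild-type replicate 3, and it was 31 with DESeq2 and 13 with library totals. The median of the 45 kept its sign in each of these, and was -1.01 without wild-type replicate 1. Over all genes, 344 were called in either direction without HY/HY replicate 3 at 8°C, against 980 in the full fit. Of the 45, *Gmnn*, *Rrm2* and *Tk1* were the genes whose call was kept without each of the 12 libraries in turn.

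At 30°C, none of the 45 was called between the genotypes by edgeR or DESeq2, where 0.562% of all genes were called higher and 0.441% lower, 1.00% in all. The median log2 fold change was -0.14, 33 genes were negative, 2 had an unadjusted p under 0.05 (against 18.6% of all genes), and 3 (*Ccnb2*, *Tk1* and *Cdc20*) had all HY/HY libraries below all wild-type libraries, against 10.6%. Without wild-type replicate 2 at 30°C, too, none was called and the median was -0.30. In 7.67% of all genes all HY/HY libraries lay above. *Tk1* had the smallest adjusted p, at 0.229 for a log2 fold change of -0.76 ± 0.32.

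The interaction, which subtracts the wild-type cold response from that of HY/HY mice, tests whether the response differed between the genotypes. Of the 45 genes, 2 were called at an adjusted p under 0.05, *Gmnn* (-1.74 ± 0.35 on the log2 scale, adjusted p = 0.0309) and *Rrm2* (-1.90 ± 0.42, adjusted p = 0.042), both lower, against 2.07% of all genes called lower and 0.169% higher. A difference in response was negative for 44 of the 45, with a median of -1.10, and 19 had an unadjusted p under 0.05, against 15.0% of all genes. *Mki67* had -1.69 ± 0.57 (adjusted p = 0.177) and *Tpx2*, with the most negative value, -1.92 ± 0.61 (adjusted p = 0.149). For the other 43 genes, then, a difference in cold response between the genotypes was not shown. Of these, 33 were called higher with cold in wild-type mice and none was called in HY/HY mice. With cold in HY/HY mice, 35 of the 45 log2 fold changes were positive, and 0.248% of all genes were called in either direction. The calls of *Gmnn* and *Rrm2* were lost in 11 and 14 of 20 alternatives, and leaving out any single library left 0 or 1 of them.

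Averaged over the genotypes, 26 of the 45 were higher at 8°C and none lower, against 7.29% and 4.96% of all genes. *Ccne1* and *Tyms* alone had all 6 libraries at 8°C above all 6 at 30°C, against 3.73% of all genes. Averaged over the temperatures, 15 were lower in HY/HY mice (against 2.26%): *Mki67*, *Top2a*, *Ccnb1*, *Ccnb2*, *Cdk1*, *Gmnn*, *Rrm2*, *Tk1*, *Birc5*, *Kif20a*, *Prc1*, *Tpx2*, *Cenpa*, *Cenpe* and *Cdc20*. The smallest adjusted p of the latter was that of *Tk1*, at 0.00932 for a log2 fold change of -1.30 ± 0.22. This count was 6 without wild-type replicate 1 at 30°C, 9 without HY/HY replicate 2 at 30°C, and at 8°C 5 without wild-type replicate 1, 4 without wild-type replicate 3, 5 without HY/HY replicate 1 and 3 without HY/HY replicate 3. Over all genes, 356 were called in either direction without HY/HY replicate 3 at 8°C, against 725 in the full fit.

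The genes that rose with cold in wild-type mice and the others differed in their promoter letters as counts. A CHR was found in 22 of the 29 promoters of genes called (75.9%) and in 2 of the 10 of genes not called, a CCAAT box in 22 of 29 and 6 of 10, and an E2F motif in 6 of 29 (20.7%) and 5 of 10. At least 2 CCAAT boxes were found in 43.6% of member promoters, against 11.7% of all promoters. The stretches of *Ccnb1*, *Cdk1*, *Cdc20* and *Top2a* hold a CHR and that of *Mcm6* does not. E2F motifs are in the stretches of both *Ccnb1* and *Mcm6*, and elsewhere in the window of *Cdk1*. These are counts of promoters and not of genes: *Prc1*, which was called, has 2 windows that overlap, and *Mcm7*, which was not, also has 2. No test was made of these counts.

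Further cell cycle genes, in lists by role, were counted in the same comparisons. Of 44 other mitotic genes tested, 35 rose and none fell, against 10.3% and 6.93% of all genes, with a median log2 fold change of 1.54. Without the library with muscle and skin transcripts 22 rose (median 1.36). At 8°C, 19 were lower in HY/HY than in wild-type mice (median -1.38), against 4.42% of all genes. Those of smallest adjusted p with cold were *Ndc80* of the kinetochore (1.96 ± 0.33, adjusted p = 0.00171) and the condensin subunits *Ncaph* (1.34 ± 0.24, adjusted p = 0.00216) and *Ncapg* (2.30 ± 0.41, adjusted p = 0.00229). Between the genotypes at 8°C they were *Ncaph* (-1.29 ± 0.24, adjusted p = 0.00921) and the kinesins *Kif4* (-1.92 ± 0.39, adjusted p = 0.0134) and *Kifc1* (-1.7 ± 0.35, adjusted p = 0.0144). The genotype call of *Ncaph* was lost without HY/HY replicate 3 at 8°C (adjusted p = 0.0541). Those of *Kif4* and *Kifc1* were lost without replicate 1 or 3 of either genotype at 8°C, with adjusted p up to 0.0693 and 0.0722. Condensin folds chromosomes for mitosis, and these kinesins act on chromosome arms and at spindle poles.

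Among 35 further replication genes, the counts were near the share over all genes: 4 rose with cold in wild-type mice, or 3 without the library with muscle and skin transcripts, against 10.3% of all genes, and the median was 0.097. Those of smallest adjusted p were *Uhrf1*, which restores DNA methylation after replication (1.38 ± 0.29, adjusted p = 0.00614), *Cdc45* of the active helicase (1.13 ± 0.24, adjusted p = 0.0071) and *Rpa3*, a subunit of the single-strand binding protein (0.65 ± 0.15, adjusted p = 0.00865). At 8°C, 2 were lower in HY/HY mice, against 4.42% of all genes, *Uhrf1* (-1.58 ± 0.30, adjusted p = 0.0103) and *Rpa3* (-0.65 ± 0.15, adjusted p = 0.0219), and the median was -0.18. The genotype call of *Uhrf1* was lost without HY/HY replicate 1 or 3 at 8°C (adjusted p up to 0.0569), that of *Rpa3* without any 1 library at 8°C other than HY/HY replicate 2 (adjusted p up to 0.0867), and under library totals neither change of *Rpa3* was called. Of 16 genes of the RB, E2F and DREAM repressor system, the atypical repressors *E2f8* (1.76 ± 0.42, adjusted p = 0.012) and *E2f7* (1.46 ± 0.37, adjusted p = 0.016) rose with cold in wild-type mice, against 10.3% of all genes. Both calls were lost without the library with muscle and skin transcripts and without wild-type replicate 3 at 8°C (adjusted p = 0.0713 and 0.0645). None of the 16 was called between the genotypes at 8°C, where 4 had an unadjusted p under 0.05, against 22.4% of all genes.

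Genes of entry into and exit from the cycle form short lists, in which 1 gene is a large share. None of the 6 G1 cyclins and CDKs was called with cold in wild-type mice (2 at an unadjusted p under 0.05, against 38.4% of all genes). At 8°C, *Ccnd2*, cyclin D2, was higher in HY/HY mice (0.97 ± 0.22, adjusted p = 0.021) and *Cdk6*, its partner kinase, lower (-0.61 ± 0.13, adjusted p = 0.015). That is 1 gene of 6 in each direction, against 1.51% of all genes called higher and 4.42% lower. Of 6 CDK inhibitors tested, *Cdkn1a*, a target of p53, rose with cold in wild-type mice (1.10 ± 0.27, adjusted p = 0.0129), and *Cdkn2b*, an inhibitor of the cyclin D kinases, was higher in HY/HY mice at 8°C (1.14 ± 0.31, adjusted p = 0.044), 1 gene of 6 each against 10.3% and 1.51% of all genes called higher. Of 15 APC/C subunits and partners, none was called with cold in wild-type mice or between the genotypes at 8°C (5 and 3 at an unadjusted p under 0.05, against 38.4% and 22.4% of all genes). No gene of these 6 lists was called by edgeR with cold in HY/HY mice, between the genotypes at 30°C or in the interaction. The calls of *Ccnd2*, *Cdk6*, *Cdkn1a* and *Cdkn2b* were each lost in some alternatives.

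**Figure D4:**
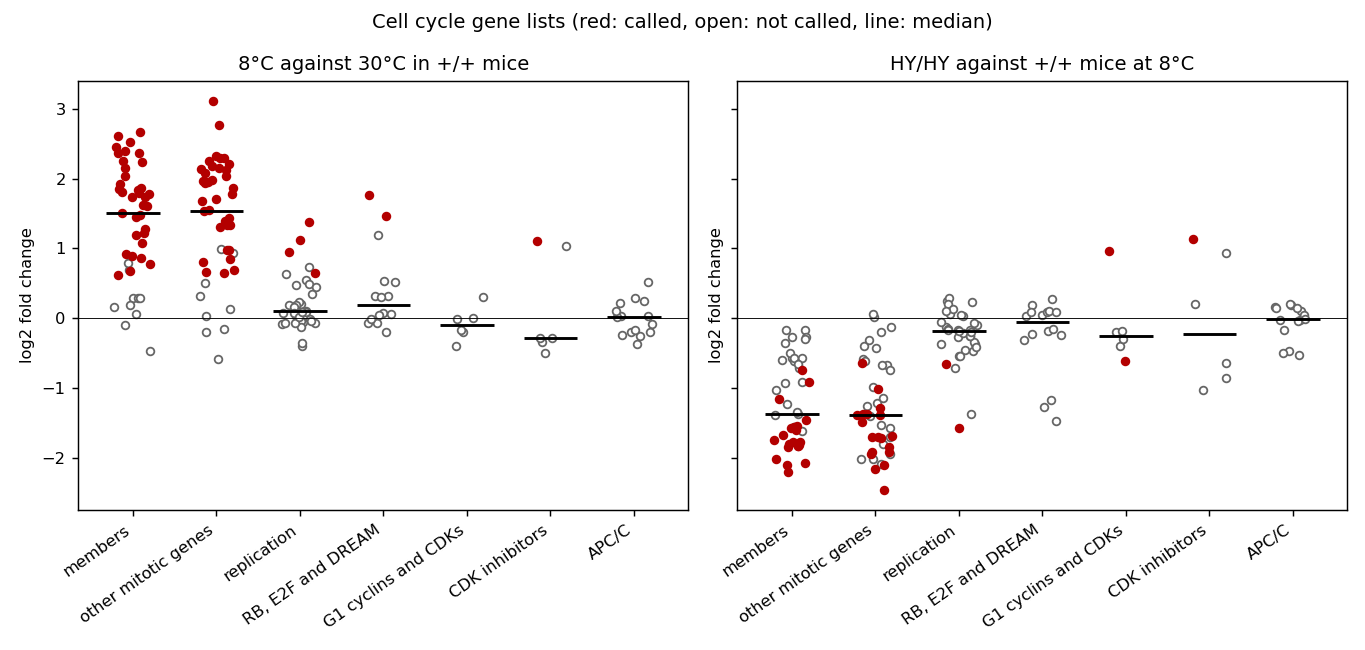
Log2 fold change of each gene (points, red where called) in the 45 members and in 6 further cell cycle lists, with the list median (line), for cold in wild-type mice (left) and for HY/HY against wild-type mice at 8°C (right). Members and other mitotic genes have medians of 1.5 and 1.54 on the left and of -1.38 each on the right, while the medians of the other lists lie between -0.29 and 0.19 on the left and between -0.25 and -0.017 on the right.

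Markers of cell types moved with the same groups in part. With cold in wild-type mice, all 4 beige adipocyte markers (*Ucp1*, *Cidea*, *Elovl3* and *Fabp3*) rose, from a sum of 35.1 to 133 CPM per library to 8055 to 9246 CPM, and at 8°C all 4 were lower in HY/HY mice, where the sum was 398 to 1567 CPM. Of 6 endothelial markers, *Pecam1*, *Cdh5*, *Kdr* and *Emcn* rose with cold in wild-type mice (sums of 459 to 676 and 810 to 1109 CPM), and none was called lower in HY/HY mice at 8°C (657 to 842 CPM). Without the library with muscle and skin transcripts *Kdr* alone of the 6 was called with cold, and all 4 beige markers were. Of 6 progenitor markers *Cd34* rose and *Ly6a* fell with cold in wild-type mice, neither without that library, and none was called between the genotypes at 8°C, with sums of 423 to 481 CPM in wild-type and 369 to 455 CPM in HY/HY mice. The part of these cells in the cell cycle values was not tested.

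Markers of lymphocytes, which divide in the lymph node embedded in this fat depot, were low in every library. The sum of 8 B lymphocyte markers was 5.64 to 10.2 CPM in wild-type mice at 8°C, and at 30°C it was 3.53, 2.74 and 23.1 CPM in wild-type mice. The highest HY/HY value was 18.4 CPM, in replicate 1 at 30°C. The sum of 7 T lymphocyte markers was in wild-type mice 4.74 to 9.43 CPM at 8°C, against 8.61 to 19.4 CPM at 30°C. None of these B and T lymphocyte genes was called with cold in wild-type mice or between the genotypes at 8°C. Without the library with muscle and skin transcripts 1, *Cd3d*, was called lower with cold.

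Of 8 macrophage markers none was called with cold in wild-type mice (sums per library of 224 to 236 and 183 to 189 CPM). *Csf1r* and *Mrc1* were higher in HY/HY mice at 8°C (274 to 383 CPM), as were 1.51% of all genes. Of 10 mammary epithelium markers, 4 fell with cold in wild-type mice, against 6.93% of all genes. They were *Epcam*, *Cldn3*, *Elf5* and *Wfdc18* (sums over the 10 of 2279 to 4182 and 1556 to 1686 CPM). None of the 10 was called between the genotypes at 8°C. Of 5 skeletal muscle markers 4 were called lower at 8°C in wild-type mice, where replicate 2 at 30°C held nearly all of the counts. Without that library no mammary, muscle or adipocyte marker was called with cold in wild-type mice. None of 3 erythrocyte markers was called (240 to 329 CPM in wild-type mice at 8°C, 95.9 to 346 CPM in the other groups). Of 7 adipocyte markers, *Lep* alone was called with cold in wild-type mice, lower, against 6.93% of all genes, while 4 of the 7 had positive log2 fold changes. At 8°C, *Lep* and *Retn* of the 7 were called higher in HY/HY mice, against 1.51% of all genes.

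**Figure D5:**
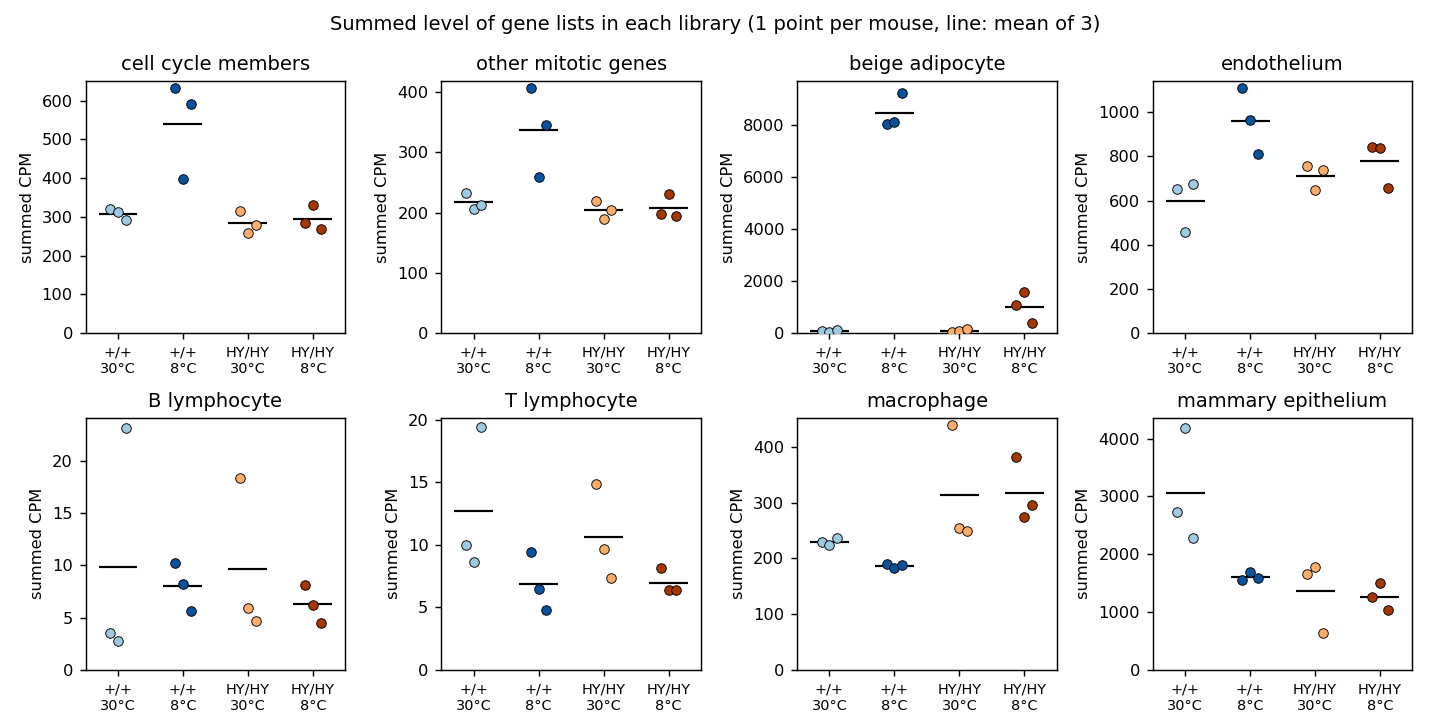
Summed CPM of the 45 members, of other mitotic genes and of 6 lists of cell type markers in each library (points, 1 per mouse; line, mean of 3). The members, other mitotic genes and beige adipocyte markers are highest in the 3 wild-type mice at 8°C, whereas B and T lymphocyte and mammary epithelium markers have their highest values at 30°C and macrophage markers in HY/HY mice.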

How the data were processed

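RNA-seq counts were analysed for 12 scWAT libraries, each from 1 mouse, so that p-values measure the spread between these mice. Per the study's methods, the authors used fastp for trimming and STAR for alignment, to the mm10 build. How the deposited counts were made is not given in the sources used here: the files hold raw counts per gene in the layout of STAR's gene counts, with an unstranded column and a column per strand. The column with most of the stranded counts, taken as sense, was used here. The 4 summary entries of each file, which name no gene, stayed out of library sizes and tests, so that genes held 36.5% to 44.2% of the read pairs. Of 55401 gene identifiers, 32589 were matched to a symbol. The 45 genes and the other lists were chosen with earlier results of these data known, so they lend no independent support.

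Counts were filtered with filterByExpr, scaled by TMM and fitted in edgeR 4.0.16 (R 4.3.3, limma 3.58.1) with glmQLFit and glmQLFTest, with 1 mean per group and all 12 libraries sharing the spread (8 residual degrees of freedom, common biological coefficient of variation 20.7%). Adjusted p-values are Benjamini-Hochberg values over 16540 genes, two-sided. The interaction was called by adjusted p alone. Alternatives were DESeq2 1.42.0, library totals, other filters, counts of both strands, the libraries of a comparison alone, a replicate block, an adjusted p limit of 0.01 and each library left out. On simulated counts of 16255 genes with 200 changed, 53% of 2-fold and 92% of 4-fold changes were recovered for cold in wild-type mice, 55% and 88% between genotypes at 8°C, and 22% and 74% for the interaction. Changes were placed in wild-type mice at 8°C alone, in genes above a minimum mean count. *Bub1* and *Ttk* lie below that minimum, so the rates do not describe them.

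Values in every library are given for Mki67, for the most abundant gene of each role and for the 25 called genes of smallest adjusted p. Of other lists, up to 3 called genes per comparison are named by this rule, and further cell type markers were named after their values were seen. The labels number the mice of each group without saying that a number links them. Same-numbered libraries of HY/HY mice at 30°C and 8°C deviated together in all 3 pairs (r = 0.112, 0.199 and 0.303), and the replicate block left no gene called with cold in HY/HY mice. No 2 libraries of a group agreed within counting noise. Promoter windows and gene positions came from RefSeq (GRCm38.p6), and merged exon lengths from an earlier GENCODE release, of which no coordinates were used. Protein sequences were not used here.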

Additional observations from a re-analysis of the deposited data

Results flagged for a closer look

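By the interaction test with all 12 libraries, the cold response differed between the genotypes for *Gmnn* and for *Rrm2*. With the wild-type response subtracted from that of HY/HY mice, the difference was -1.74 ± 0.35 for *Gmnn* and -1.90 ± 0.42 for *Rrm2* (log2 scale, SE; edgeR adjusted p = 0.0309 and 0.042), and both use the same 3 wild-type libraries at 8°C. The calls were lost in 11 and 14 of 20 alternatives, and leaving out any single library left 0 or 1 of them.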

How the results depend on the processing

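With library totals in place of TMM, which moved the median of all genes with cold in wild-type mice to -0.41, the median of the 45 genes was 1.17, 13 genes were lower in HY/HY mice at 8°C and none was called in the interaction. The log2 fold changes with cold in wild-type mice then changed sign for *Pcna* (-0.17), *Pttg1* (-0.14), *Mcm2* (-0.051), *Mcm4* (-0.28), *Cdc6* (-0.038) and *Cdt1* (-0.045). An adjusted p limit of 0.01 left 22 genes higher with cold in wild-type mice, with 3 lower in HY/HY mice at 8°C, 0 in the interaction, 17 higher with cold and 1 lower in HY/HY mice in the averages. With a replicate block, 1 gene was called in the interaction, 36 were higher in wild-type mice at 8°C than at 30°C, and 26 were lower in HY/HY mice at 8°C. The shared numbers were a hint from the data only: 11 of 18 same-numbered pairs had r above 0.1, from -0.0695 to 0.346, and 4 libraries correlated best with their own number in every other group. DESeq2 called 35 genes for the wild-type cold response, 31 at 8°C between genotypes and 3 in the interaction, and 30 were lower at 8°C with only the libraries of that comparison.

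Leaving out each library in turn gave 23 to 35 genes higher with cold in wild-type mice (median 1.32 to 1.74), 0 in HY/HY mice (0.12 to 0.50), 3 to 23 lower in HY/HY mice at 8°C (-1.60 to -1.01), 0 at 30°C (-0.34 to -0.033), 0 to 1 in the interaction (-1.35 to -0.84), and in the averages 19 to 31 higher with cold (0.85 to 1.10) and 3 to 16 lower in HY/HY mice (-0.87 to -0.60). Signs changed with cold in wild-type mice for *Mcm4* (-0.093 without wild-type replicate 3 at 8°C to 0.24 without replicate 2 at 8°C), *Mcm6* (-0.77 without replicate 3 at 30°C to 0.12 without replicate 2 at 30°C) and *Mcm7* (-0.22 without replicate 1 at 30°C to 0.040 without replicate 2 at 8°C). Fewer mice enter each of these fits, and the number of all genes called moved as well. It ran from 1901 to 3400 with cold in wild-type mice and from 344 to 1240 between the genotypes at 8°C. Otherwise the cause of a change was not tested. Counts limit precision: the libraries at 8°C were smaller, and *Bub1* had as few as 3 counts in a library at 30°C.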
